A study of Mus musculus with 6 samples.

Results

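Integrins are pairs of an alpha and a beta chain that span the cell membrane and tie the matrix outside a cell to actin inside it. The alpha chain largely sets the ligand, and the tail of the beta chain binds talin, kindlins and the ILK-PINCH-parvin complex, of which alpha-parvin (Parva) is an actin-binding member. In the glomerulus, the filtering unit of the kidney, the pair of Itga3 and Itgb1 is known as the main receptor with which podocytes hold on to laminin in the basement membrane. Described here are 10 genes, 7 alpha chains (Itga1, Itga2, Itga3, Itga5, Itga6, Itga8, Itgav) and 3 beta chains (Itgb1, Itgb3, Itgb5), chosen by symbol through the NCBI Gene identifiers of the deposited table. They are 10 of 27179 rows, each was found once, and all 10 passed the filter on low values.

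RNA was sequenced from glomeruli that had been isolated with magnetic beads from 6 male mice aged 9 weeks, of a strain labelled C57BL/6 mixed. The extraction protocol, the same for all samples, speaks of mild proteinuria. The 3 WT mice carried floxed Parva alleles (Parva-fl/fl), and the 3 KO mice carried the same alleles with hNPHS2Cre (Parva-fl/fl*hNPHS2Cre), a Cre driven by the promoter of the human podocin gene, which is active in podocytes. Both groups therefore share the floxed gene, and endothelial and mesangial cells of the KO glomeruli are not a target of this Cre. The comparison asks what changes in glomerular RNA when alpha-parvin is removed from podocytes.

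Whole reads per library numbered 11886828 to 20552984. Between 0.239% and 32.4% of them lay in 10 genes whose count in 1 library was at least 30 times that in any other, none of them an integrin chain. This share was 30.1% in WT-1, 17.4% in WT-2, 32.4% in WT-3 and 28.5% in KO-1. It was 0.241% in KO-2 and 0.239% in KO-3, and its part in the results was not tested. Parva itself fell from a mean normalised count of 7332 ± 672 to 2189 ± 215 (SD, n = 3; limma adjusted p = 0.0106), and the KO libraries all lay below the WT libraries. A normalised count is the number of reads on a gene divided by a size factor of the library. Marker lists moved as well. They were called by the limma test described below, which called 8.58% of all genes tested lower and 13.5% higher in KO. Of 19 podocyte markers 9 were lower in KO and none higher, and of 17 glomerular endothelial markers 15 were lower. Of 9 mesangial markers 8 were lower, and of 16 proximal tubule markers 15 were higher. Higher too were 4 of 6 parietal and 3 of 9 distal tubule and collecting duct markers. Of 5 smooth muscle and renin markers tested, 3 were lower and 1 higher. No immune marker was called, and the 1 platelet marker tested was lower. No marker of these lists stood at 0 in all libraries. The summed proximal tubule markers ranged from 100780.0 to 222768 in WT, highest in WT-1, and from 250517 to 387944 in KO. The summed podocyte markers ranged from 269478 to 344562 in WT and from 175315 to 263945 in KO. For every value below, fewer cells of a type and less RNA per cell cannot be told apart in bulk RNA, and the part that the cell make-up of the samples has in a result was not tested.

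In WT glomeruli the common partner chain Itgb1 led the order of levels and Itga2 closed it. Levels of different genes are compared here as normalised counts per kilobase of merged exons. Itgb1, which pairs with each of the 7 alpha chains described, stood at 4148 ± 178 per kilobase (SD, n = 3). Itgb5, which pairs with Itgav to bind vitronectin, followed at 2942 ± 371. Itga3 was the most abundant alpha chain at 1392 ± 107, and Itga8, a receptor for nephronectin best known from mesangial cells, was next at 1030 ± 119 per kilobase. Itgav, the alpha chain shared by the vitronectin receptors, stood at 280 ± 7.92. The WT libraries of each of these 5 chains lay wholly above those of the next chain in the order.

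The remaining 5 chains were lower still. Itga5, the fibronectin receptor chain, and Itga6, a second laminin receptor chain, stood at 69.6 ± 11.9 and 69.6 ± 16.1 per kilobase, and their ranges in WT overlapped. With the length of the longest transcript in place of merged exons, Itga6 (146 ± 33.8) lay above Itga5 (77.8 ± 13.3), without overlap. The collagen receptor chain Itga1 stood at 21.0 ± 1.94 per kilobase. Itgb3, known from the vitronectin receptor and from the fibrinogen receptor of platelets, stood at 16.7 ± 0.632. Itga2, a collagen receptor chain of epithelia and platelets, was lowest at 7.45 ± 2.08 per kilobase (SD, n = 3). It rested on 37 to 70 reads per library, so that its values carry the largest counting error of the 10.

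**Figure D1:**
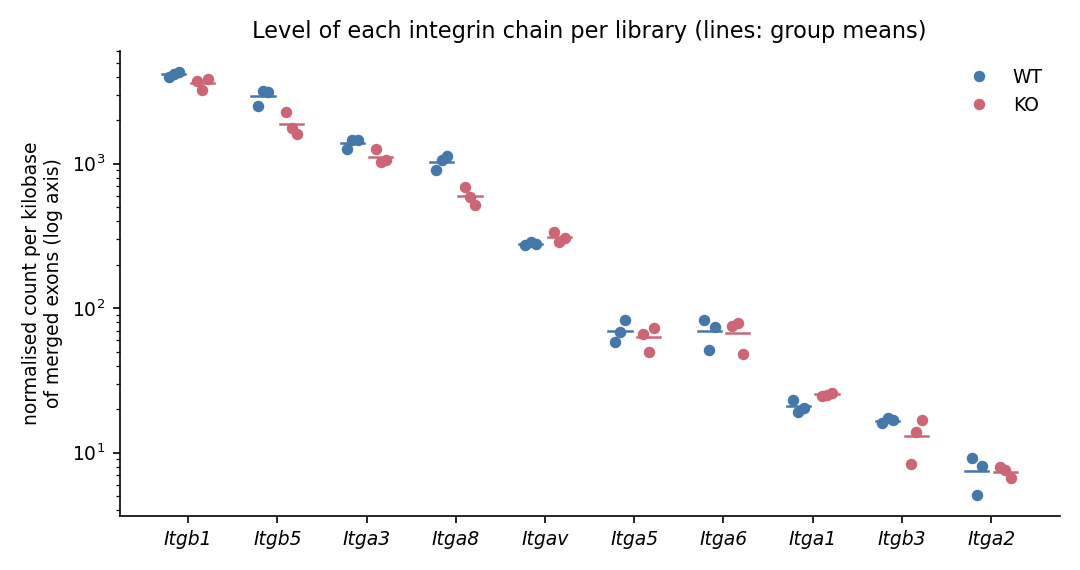
Normalised count per kilobase of merged exons (log axis) for each of the 10 integrin chains, ordered by WT mean; points are single libraries and short lines are group means (3 WT, 3 KO). Itgb1 and Itgb5 lead in both genotypes, Itga5 and Itga6 overlap in WT, and the KO points of Itga8 and Itgb5 lie below their WT points.

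Itga8 and Itgb5 fell in KO, and the other 8 chains did not pass the test. The test was limma on log2(normalised count + 1) over 13946 genes, with a Benjamini-Hochberg adjusted p below 0.05 as the threshold. Of all genes tested, 22.1% passed it, 8.58% as lower and 13.5% as higher in KO. On the whole reads, edgeR called 20.4% of all genes and DESeq2 27.3%, and each called the same 2 chains. The 2 of 10 chains, 20.0%, are therefore close to the background and do not set the family apart. The median log2 change of the 10 chains was -0.18, against -0.01 over all genes tested. In 4 of the 10 chains the 2 genotypes did not overlap, Itga8, Itgb5 and Itgb1 with KO lower and Itga1 with KO higher, against 45.1% of all genes tested (21.9% with KO lower and 23.2% with KO higher).

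Shown here are the promoters of the 2 chains that fell, whose part in the change was not tested. They are the 250 bases before the start in RefSeq's table (build GRCm38.p6, to which mm10 corresponds), printed on the strand of the gene, with each GC box (GGGCGG on either strand) in capitals. The Itga8 window is chr2:12301945-12302194 on the minus strand and the Itgb5 window is chr16:33829415-33829664 on the plus strand. The gene span given below for Itga8 ends at 12301985, so this window partly overlaps it. The start used for the Itga8 window thus lies inside that span.
Itga8: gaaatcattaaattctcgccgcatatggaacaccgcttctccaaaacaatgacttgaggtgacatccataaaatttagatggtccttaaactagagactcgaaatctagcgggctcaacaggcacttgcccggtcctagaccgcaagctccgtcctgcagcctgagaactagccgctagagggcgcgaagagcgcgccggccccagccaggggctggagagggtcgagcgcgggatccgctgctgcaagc
Itgb5: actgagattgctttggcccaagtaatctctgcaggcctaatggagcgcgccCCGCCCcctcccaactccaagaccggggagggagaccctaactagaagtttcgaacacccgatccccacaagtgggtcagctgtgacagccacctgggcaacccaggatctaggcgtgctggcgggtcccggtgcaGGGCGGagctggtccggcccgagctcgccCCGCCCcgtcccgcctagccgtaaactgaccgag
The Itgb5 window holds 3 GC boxes, which begin at -199, -63 and -34 from the start, and the Itga8 window holds none. Of 32851 promoter windows of this length, 32.7% hold at least 1 GC box, as do those of 4 of the 8 chains found in the table. Also searched on both strands were TATAAA (in 12.4% of the windows), the TEAD motif GGAATG (12.6%) and the CArG box (1.47%). Neither window holds one of them, and of the 8 chains only Itgb1 has 1, a TEAD motif at -7.

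Itga8 had the lowest log2 change of the 10 chains in the main test. The gene lies on mm10 chromosome 2, 12106632 to 12301985 (NCBI Gene 241226). WT-1 had a normalised count of 6616, WT-2 of 7835 and WT-3 of 8312, and KO-1 had 5109, KO-2 had 4323 and KO-3 had 3808. Every KO library lay below every WT library. The mean fell from 7588 ± 875 to 4413 ± 655 (SD, n = 3), by 41.8%, a log2 change of -0.79 (SE 0.15, limma adjusted p = 0.0286). By a two-sided exact permutation test p was 0.1, and a design of 3 against 3 can give no smaller one. The adjusted p was 0.0326 in edgeR and 8.16e-05 in DESeq2 on the whole reads. In limma it did not pass when WT-2 (0.107), WT-3 (0.106), KO-2 (0.109) or KO-3 (0.0696) was left out, at log2 changes of -0.68 to -0.78, and it was 0.00459 without WT-1 and 0.0439 without KO-1.

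Itgb5, the vitronectin receptor chain, was the other chain that fell. It lies on mm10 chromosome 16, 33829665 to 33949338 (NCBI Gene 16419). Normalised counts were 8936, 11339 and 11079 for WT, against 8058, 6310.2 and 5728 for KO. WT-1 was the lowest WT library and KO-1 the highest KO library, and the groups did not overlap. The mean fell from 10451 ± 1319 to 6699 ± 1213 (SD, n = 3), by 35.9%, a log2 change of -0.65 (SE 0.17, limma adjusted p = 0.0371; edgeR 0.0416; DESeq2 0.00317). Here too the call was lost in limma without WT-2 (adjusted p = 0.127), WT-3 (0.125), KO-2 (0.127) or KO-3 (0.0981), at log2 changes of -0.54 to -0.61. It was 0.0136 without WT-1 and 0.0439 without KO-1. With the mean level of the proximal tubule markers as a covariate, the log2 changes were -0.34 for Itga8 and -0.11 for Itgb5 (limma adjusted p = 0.9999 for each), and no gene of the table passed in that fit. The marker level was higher in every KO library (mean log2 12.93 to 13.51) than in every WT library (11.39 to 12.57). Genotype and tubule marker level therefore cannot be told apart in that fit, here and wherever its values are given below. With this covariate, Itgb3 (-0.71), Itga2 (-0.42) and Itga6 (-0.37) had lower log2 changes than Itga8.

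**Figure D2:**
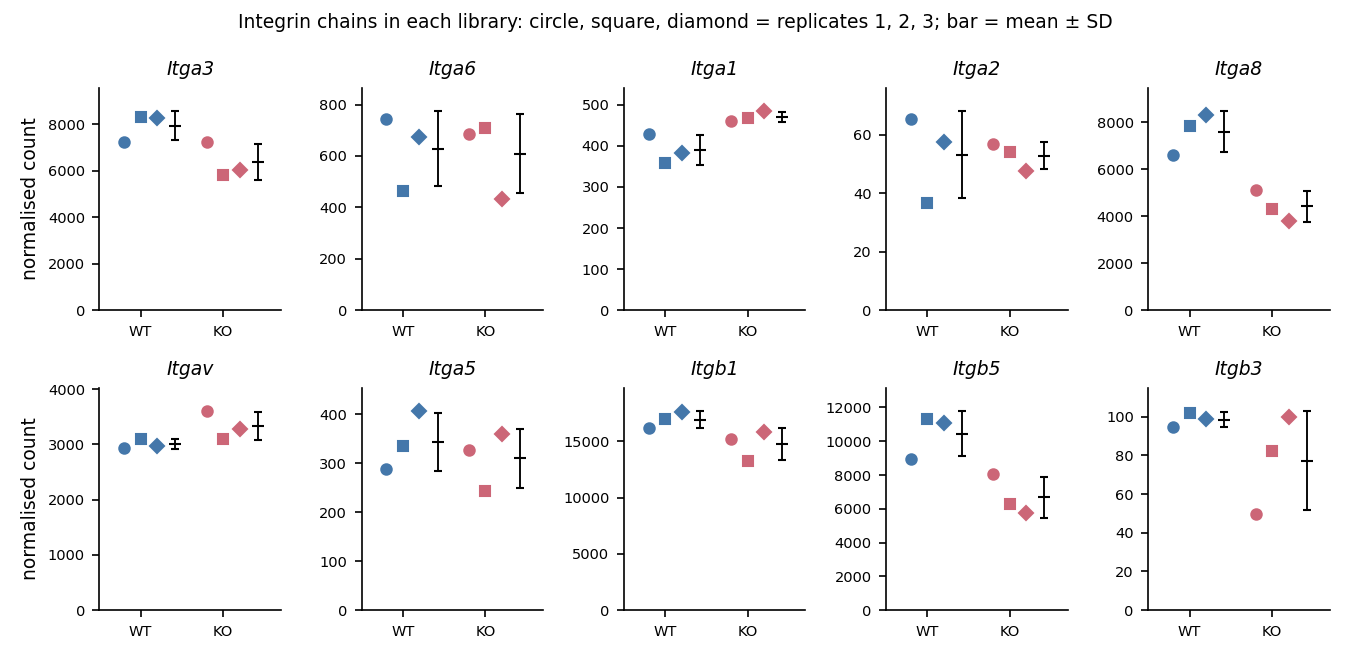
Normalised counts of each chain (vertical axes from 0, with a scale of their own) in the 3 WT and 3 KO libraries; circles, squares and diamonds are replicates 1, 2 and 3, and black bars are the mean ± SD. Itga8 and Itgb5 separate the groups by the widest margin, whereas Itga6, Itga2, Itga5 and Itgb3 overlap.

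The laminin receptor chains did not pass. Itga3, the podocyte laminin receptor chain (NCBI Gene 16400; mm10 chromosome 11, 95044475 to 95076844), was counted at 7244, 8327 and 8279 in WT, against 7247, 5832 and 6037 in KO. KO-1 was level with WT-1, so the groups overlapped by that pair of libraries. The means were 7950.1 ± 612 and 6372 ± 765 (SD, n = 3), with a log2 change of -0.32 (SE 0.13, limma adjusted p = 0.109). Itga6 stood at 745, 465 and 674 in WT and at 684, 710.3 and 433 in KO. Its libraries varied within each genotype by more than the means of the genotypes differed, and its log2 change was -0.05 (SE 0.24, limma adjusted p = 0.893).

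Itgb1, the chain that joins these receptors to talin, kindlins and the parvin complex, did not pass either (NCBI Gene 16412; mm10 chromosome 8, 128685654 to 128733579). It stood at 16184, 16967 and 17632 in WT and at 15213, 13204 and 15864 in KO. The KO libraries lay below the WT libraries by a narrow gap, and the log2 change was -0.20 (SE 0.14, limma adjusted p = 0.331). Itgb3 was at 94.5, 102 and 98.8 in WT and at 49.6, 82.3 and 99.8 in KO, so that KO-3 lay within the WT range and KO-1 far below it. Its log2 change was -0.40 (SE 0.26, limma adjusted p = 0.290), from 56 to 120.0 reads per library.

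Among the collagen receptor chains, Itga1 was somewhat higher in KO without passing the test. Its normalised counts were 429, 358 and 382 in WT, against 459.8, 468 and 484 in KO, without overlap, and a log2 change of 0.27 (SE 0.10, limma adjusted p = 0.0895). Without WT-1 it passed in limma (adjusted p = 0.0450, log2 change 0.35). Itga2 was at 65.2, 36.6 and 57.6 in WT and at 56.7, 54.1 and 47.6 in KO. All KO values of Itga2 lay inside the WT range, and the log2 change was 0.03 (SE 0.26, limma adjusted p = 0.944).

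The other receptor chains for RGD-bearing ligands did not pass. Itgav stood at 2942, 3102 and 2971 in WT and at 3596, 3094 and 3283 in KO, where KO-2 lay inside the WT range. Its log2 change was 0.14 (SE 0.09, limma adjusted p = 0.284). Itga5 was at 289, 336 and 406 in WT and at 327, 244 and 359 in KO, with a log2 change of -0.15 (SE 0.19, limma adjusted p = 0.573). For the partner chains Itgb5 and Itgav, levels were compared as log2(normalised count + 1) without division by gene length. Only the change between genotypes is therefore to be read from them, not the ratio of the 2 chains. The log2 level of Itgb5 minus that of Itgav went from 1.79 ± 0.16 in WT to 0.998 ± 0.182 in KO (SD, n = 3), without overlap. The two-sided exact permutation p was 0.1, the smallest possible, and 0.114 when adjusted over the 8 pairs of chains computed, which were chosen after their values were seen.

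Shares within a library do not depend on how libraries are scaled. They are parts of 1 whole, so a lower share of 1 chain raises those of others, whatever their own levels. The mean count of Itga3, whose share rose, was 7950.1 in WT and 6372 in KO. Among the summed levels per kilobase of the 7 alpha chains, Itga8 held 34.4%, 36.0% and 37.1% in WT and 28.1%, 28.5% and 25.4% in KO. Every KO share of Itga8 was below every WT share, and the mean went from 35.8% ± 1.39 to 27.3% ± 1.68 (SD, n = 3). The share of Itgav went from 9.78% ± 0.690 to 14.2% ± 0.762, that of Itga3 from 48.5% ± 0.835 to 51.0% ± 1.21, and that of Itga1 from 0.737% ± 0.127 to 1.17% ± 0.148, each with all KO libraries above all WT libraries. For each of these 4 chains the two-sided exact permutation p was 0.1, the smallest possible, and 0.175 when adjusted over the 7 chains. The shares of Itga5, Itga6 and Itga2 overlapped. Leaving out any single library moved the difference in the Itga8 share only between -9.22 and -7.53 percentage points.

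By ligand, the RGD-binding chains Itga5, Itga8 and Itgav together held 48.0% ± 0.920 in WT and 44.4% ± 0.466 in KO, and the laminin-binding chains Itga3 and Itga6 held 51.0% ± 0.781 and 54.1% ± 0.524 (SD, n = 3). The collagen-binding chains held 0.9997% ± 0.210 and 1.51% ± 0.161. None of these 3 classes overlapped between the genotypes (two-sided exact permutation p = 0.1 for each, the smallest possible). As parts of 1 whole, the 3 classes are not separate results. Of the 3 beta chains summed in the same way, Itgb5 held 38.7%, 43.3% and 41.8% in WT and 37.8%, 35.3% and 29.2% in KO, with the remainder almost wholly in Itgb1. KO-1 lay just under WT-1 in this share, and KO-3 was lowest. Per kilobase, Itga8 stood at 0.738 ± 0.0360 of Itga3 in WT and at 0.537 ± 0.0437 in KO. The summed alpha chains stood at 0.691 ± 0.0280 of Itgb1 in WT and at 0.607 ± 0.0742 in KO (SD, n = 3), with overlap. With Itga8 taken out of the sum, these values were 0.443 ± 0.0111 and 0.441 ± 0.0451, again with overlap. Itga8 had the lowest log2 change of the 10 chains, so a smaller difference without it follows from that and is no separate result.

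**Figure D3:**
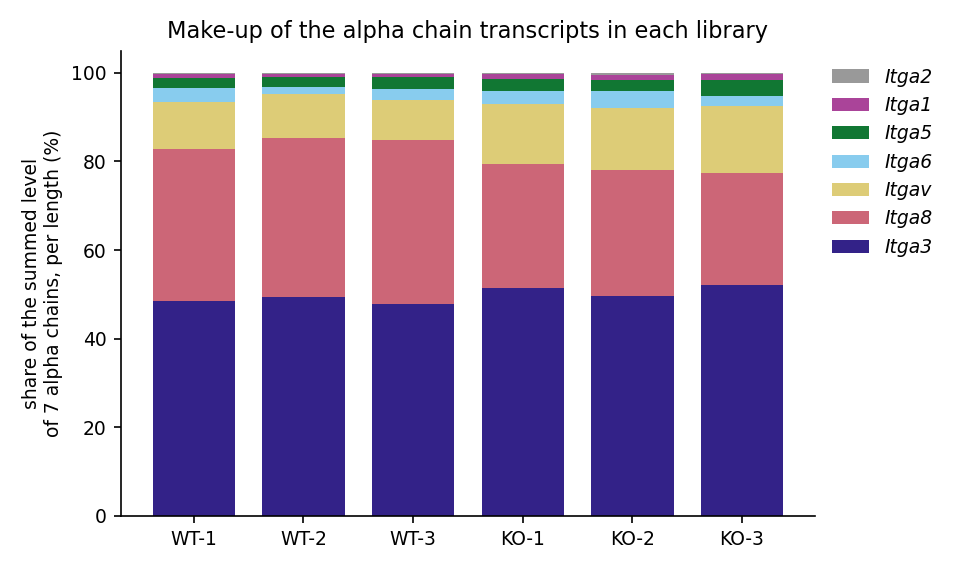
Share of each alpha chain in the summed level per kilobase of the 7 alpha chains, in percent, as stacked bars for the 6 libraries. Itga3 holds 47.7% to 52.0% in each library, the Itga8 segment is smaller in the 3 KO libraries (25.4% to 28.5%) than in the 3 WT libraries (34.4% to 37.1%), and the Itgav segment is larger.

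Set against markers of glomerular cells in the same library, the values of Itgb5 overlapped between genotypes for podocyte and for endothelial markers, and those of Itga8 for mesangial markers. The pairs of chain and list were chosen after the values were seen, and each value is the log2 level of the chain minus the mean log2 level of the list. These levels are not divided by gene length, so a value within 1 genotype does not rank chain against list. Itgb5 stood above the podocyte markers by 0.51 ± 0.06 in WT and by 0.47 ± 0.02 in KO (SD, n = 3), with overlap. It stood above the endothelial markers by 1.717 ± 0.039 in WT and by 1.696 ± 0.290 in KO, also with overlap. Itga8 stood above the mesangial markers by 1.73 ± 0.07 in WT and by 1.62 ± 0.24 in KO, again with overlap, and against podocyte markers it went from 0.05 ± 0.01 to -0.12 ± 0.07, without overlap. Itga3, Itgb1 and Itgav, which had not passed, stood higher against the podocyte markers in all KO libraries than in the WT libraries. For Itga3 the value went from 0.12 ± 0.07 to 0.41 ± 0.14, for Itgb1 from 1.21 ± 0.12 to 1.62 ± 0.30, and for Itgav from -1.28 ± 0.16 to -0.52 ± 0.20. Itga1 against the mesangial markers went from -2.54 ± 0.34 to -1.59 ± 0.08, with all KO libraries higher. The two-sided exact permutation p was 0.1, the smallest possible, for each pair without overlap, and 0.16 when adjusted over the 8 pairs computed.

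**Figure D4:**
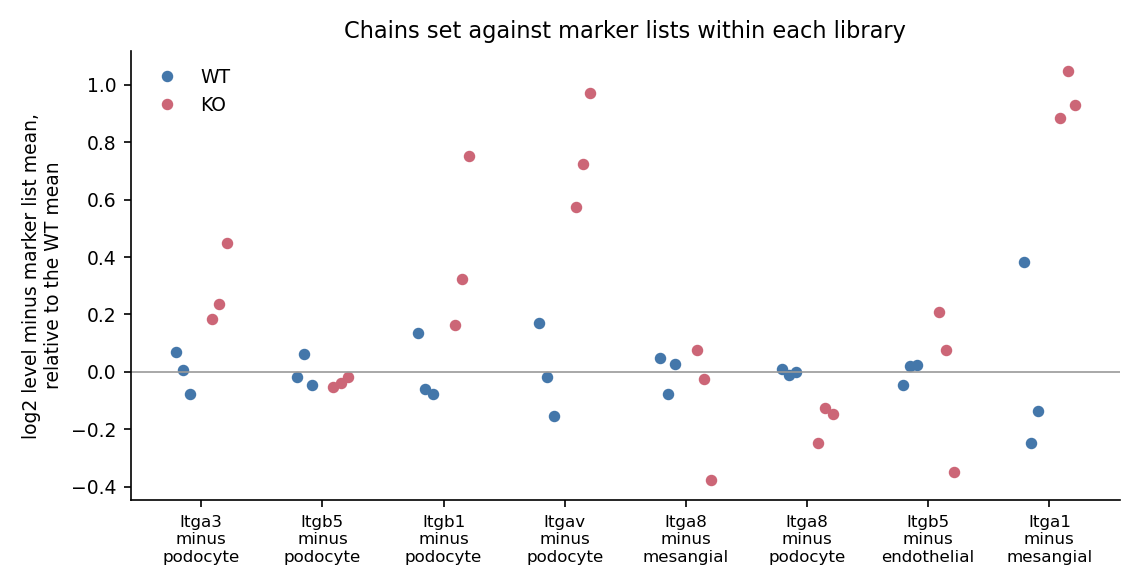
Log2 level of a chain minus the mean log2 level of a marker list in the same library, drawn relative to the WT mean of that difference; points are single libraries (3 WT, 3 KO). Itgb5 against podocyte markers stays near 0 in all 6 libraries, whereas the KO points of Itga3, Itgb1 and Itgav against podocyte markers lie above their WT points.

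Likeness of profiles was measured as the root mean square difference of log2 levels over the 6 libraries, each gene or list centred on its own mean. The points share libraries and depth, so the values are a description. Itgb5 lay 0.04 from the mean profile of the podocyte markers, 0.15 from the mesangial, 0.17 from the endothelial and 1.22 from the proximal tubule markers. Itga8 lay 0.09 from the podocyte, 0.15 from the mesangial, 0.18 from the endothelial and 1.27 from the proximal tubule markers. Podocyte markers were nearest to Itga3 as well, at 0.17, with endothelial markers at 0.18 and smooth muscle and renin markers at 0.19. The other chains were nearest to other lists. Smooth muscle and renin markers were nearest to Itgb1 (0.11, podocyte 0.28), Itgav (0.26, podocyte 0.41) and Itga5 (0.20, podocyte 0.33). They were also nearest to Itga1 (0.30), Itga2 (0.29) and Itga6 (0.38), and platelet and megakaryocyte markers were nearest to Itgb3 (0.29). Among 11371 named genes with a mean of at least 50, the 2 nearest to Itga8 were Rgs3 (0.019) and Arrb1 (0.035), those nearest to Itgb5 were Hoxd4 (0.040) and Ankrd44 (0.040), and those nearest to Itga3 were Vezf1 (0.022) and Colec12 (0.023). For Itgb1 they were Mosmo (0.033) and Ptp4a2 (0.034), for Itgav Cyp4v3 (0.020) and Cep97 (0.024), and for Itga1 Tbc1d22b (0.029) and Ufsp2 (0.033). The smallest values of the remaining 4 chains were larger, at 0.057 (Uhmk1) for Itga2, 0.041 (Arhgef18) for Itga5, 0.091 (Rcor1) for Itga6 and 0.091 (Hmgn2) for Itgb3.

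Of the other 17 integrin chains of the mouse, 13 passed the filter, and 2 fell and 1 rose, 23.1% against the background of 22.1%. Itga9, which pairs with Itgb1, fell from 1296 ± 151 to 771 ± 96.8 (SD, n = 3), a log2 change of -0.75 (SE 0.13, limma adjusted p = 0.0286). Itga4, the alpha chain of the receptor for Vcam1, fell from 1197 ± 144 to 709 ± 68.2 (SD, n = 3), also by 0.75 on the log2 scale (limma adjusted p = 0.0286). Itgb6, an epithelial partner of Itgav that activates latent TGF-beta, was counted at 498, 253 and 256 in WT, against 633, 1031 and 1004 in KO. It rose by 1.44 on the log2 scale (SE 0.30, limma adjusted p = 0.0287), and WT-1 was the highest WT library. WT-1 was also highest in WT for the summed proximal tubule, distal tubule and collecting duct, and parietal markers. With the mean of the proximal tubule markers as a covariate, the log2 changes were 0.10 for Itgb6, -0.61 for Itga9 and -0.42 for Itga4. The muscle laminin receptor chain Itga7 had means of 222 ± 25.0 for WT and 179.8 ± 18.4 for KO (SD, n = 3; limma adjusted p = 0.155). None of the 3 calls was made in limma without WT-2, WT-3, KO-2 or KO-3.

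**Figure D5:**
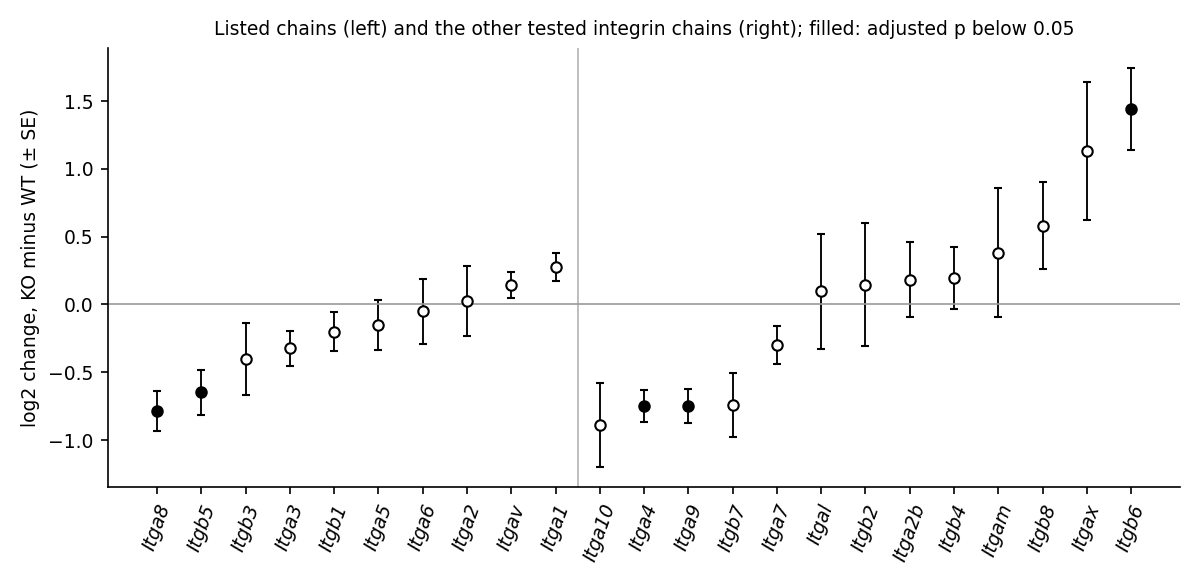
Log2 change between KO and WT with its SE for the 10 chains described (left of the line) and for the other 13 integrin chains that passed the filter (right); filled points have a limma adjusted p below 0.05. Filled are Itga8, Itgb5, Itga4 and Itga9 below 0 and Itgb6 above 0.

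Genes of integrin ligands were mixed, with 3 of 35 higher, 3 lower and a median log2 change of 0.02. The 17.1% that passed compare with 22.1% of all genes tested. Lama5, the alpha chain of the main laminin of the glomerular basement membrane and a ligand of Itga3, fell from 2905 ± 263 to 2177 ± 201 (SD, n = 3), a log2 change of -0.42 (SE 0.11, limma adjusted p = 0.0381). Lama1, the alpha chain of an embryonic laminin, rose from 38.5 ± 14.5 to 117 ± 9.10 (limma adjusted p = 0.0286). Ccn1, a matrix protein bound by Itgav receptors, had 791, 685 and 678 in WT and 1463, 1434 and 1625 in KO, a log2 change of 1.07 (SE 0.10, limma adjusted p = 0.0217). Spp1, osteopontin, another ligand of Itgav receptors, rose by 2.15 on the log2 scale but was uneven, at 22758 in KO-3 against 6908 and 8639 in KO-1 and KO-2. Postn and Tgfbi, ligands of Itgav receptors, fell by 1.51 and 0.65 on the log2 scale. With the mean of the proximal tubule markers as a covariate, log2 changes were 0.83 for Ccn1, 0.38 for Spp1, 0.68 for Lama1, -0.15 for Lama5, -1.46 for Postn and -0.56 for Tgfbi. Npnt, the nephronectin ligand of Itga8, was among the 4 most abundant ligand genes and did not pass, with 7553 ± 546 for WT and 8767 ± 1058 for KO (SD, n = 3; limma adjusted p = 0.266). Nor did the other 3 of these, Ccn2, Col4a3 and Mfge8, with log2 changes of 0.05, 0.18 and -0.50. No call of this list was made in limma without WT-2, WT-3, KO-2 or KO-3, and Tgfbi was not called without KO-1 (adjusted p = 0.0958).

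Of 28 genes of proteins that bind or regulate integrins, 5 rose and 4 fell, 32.1% against 22.1% of all genes tested, with a median log2 change of -0.01. Kindlins, which bind the tail of Itgb1 beside talin, divided by gene. Fermt2, the kindlin of most adherent cells, fell from 4240.1 ± 437 to 3117 ± 269, and Fermt3, that of blood cells, from 275 ± 42.4 to 159 ± 27.6, whereas the epithelial Fermt1 rose from 112 ± 63.9 to 264 ± 54.0 (SD, n = 3; limma adjusted p = 0.0381, 0.0304 and 0.0421). Fermt1 was high in WT-1 (185) beside the other WT libraries (66.3 and 84.0). It did not pass in edgeR (adjusted p = 0.0556), and its log2 change was -0.25 in the limma fit with the tubule covariate. Rap1b, a small GTPase upstream of integrin activation, and Emp2, a membrane protein that binds integrins, fell by 0.38 and 0.59 on the log2 scale. With the tubule covariate, the log2 changes of the 4 genes that fell were -0.06 for Fermt2, -0.33 for Fermt3, -0.22 for Rap1b and -0.28 for Emp2. Tln2, Cd63, Dab2 and Lgals3 rose by 1.62, 1.099, 0.70 and 1.52, and with that covariate their log2 changes were 0.37, 0.19, 0.21 and 0.04. Cd151, the tetraspanin bound to Itga3, did not pass, with means of 5923 ± 807 and 4909.7 ± 568 (SD, n = 3; limma adjusted p = 0.204), and neither did Cd81 (log2 change -0.22) or Bsg (0.37), also among the most abundant of the list. Without WT-2, WT-3, KO-2 or KO-3 none of these calls was made, and without KO-1 only those of Cd63, Dab2, Fermt2 and Tln2 were, in limma.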

How the data were processed

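Glomerular RNA of 3 KO and 3 WT mice was compared, grouped by sample title. The deposited table holds normalised counts, a signal: the authors counted reads on each gene and scaled every library by 1 factor, per the file headers and the values. The submitters' processing notes name cutadapt 1.16.5, HISAT2 2.1, featureCounts 1.6.4, DESeq2 2.11.40.6 and mm10. Which annotation and strand setting were used, and how multi-mapping reads were handled, is not given in the sources used here, so reads of overlapping or antisense genes cannot be told apart.

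Whole reads were recovered from the values (100% whole at a tolerance of 0.01 in each library). Depth sets the counting error, and reads without molecular identifiers are not independent molecules. The main test was limma 3.58.1 (R 4.3.3) with a variance trend on log2(normalised count + 1), genotype as its only term, for genes with a mean of at least 10, adjusted over all of them by Benjamini-Hochberg. Such fold changes understate those of low genes. edgeR 4.0.16 (quasi-likelihood) on the recovered reads called 2841 genes and DESeq2 1.42.0 called 3810. The steps were tested on simulated counts.

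Names were looked up in RefSeq's gene table and GENCODE M21 (25293 of 27179 identifiers named), and exon lengths came from the latter. The integrin chains and all gene and marker lists were chosen with earlier results of these data known. Named are the 10 chains, the members of the other lists past the threshold, the 4 most abundant members of each of these lists by WT mean, and the 2 genes nearest in profile to a chain (for 4 chains only the nearest is given). Other settings tried were a block of replicate numbers, TMM, upper quartile and marker-list scaling, pseudocounts of 0.5 and 5, limma without trend or with a robust prior, other filters, a proximal tubule marker covariate, another gene length and leaving out each library. edgeR without each library and shares over all 18 alpha chains were added after seeing the data.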

Additional observations from a re-analysis of the deposited data

How the results depend on the processing

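The calls of Itga8 and Itgb5 held under the other pseudocounts, TMM and upper quartile scaling, the robust prior, the other filters, edgeR and DESeq2. Neither changed sign under the 26 alternatives, though Itgb5 came close to 0, and the share of Itga8 was lower in KO under every alternative run. Itga8 and Itgb5 were not called with marker lists set equal. The 2 chains then called for podocyte markers were Itga1 and Itgav, both higher in KO, where 43.5% of all genes tested were called higher. The 4 for endothelial and mesangial markers were Itga1, Itga5, Itgav and Itgb1, all higher in KO, where 63.2% of all genes tested were called higher. The count of 2 chains was 0 with the replicate block, without the variance trend and with the proximal tubule covariate, and 0 to 3 without single libraries in limma and in edgeR. The 3085 genes called in all became 0 with the block (limma, 4284 at an unadjusted p below 0.05), 1 without the trend, 0 with the covariate (limma, 411 at an unadjusted p below 0.05), 6096 at equal podocyte markers and 8861 at equal endothelial and mesangial markers. Without single libraries they ranged from 0 to 4294 in limma and from 0 to 4307 in edgeR, with 1186 in edgeR without KO-1. The cause of these losses was not tested. Replicate numbers did not pair the libraries (correlations of deviations -0.226, -0.191 and -0.0129).

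Equal podocyte markers moved the median log2 change of all genes to 0.60, and equal endothelial and mesangial markers moved it to 0.63. Under these, Itga8 was at -0.17 and -0.14 (limma adjusted p = 0.485 and 0.472) and Itgb5 at -0.036 and -0.0041 (0.895 and 0.985). Relative to the median, Itga8 was at -0.77 and Itgb5 at -0.64 under both, beside -0.78 and -0.64 in the main fit. Marker scaling divides all genes of a library by 1 factor, so this subtraction returns nearly the main values whatever the data. They are not a separate result. Before that subtraction, signs turned in Itga3 (0.29 and 0.32), Itga5 (0.46 and 0.49), Itga6 (0.56 and 0.59), Itgb1 (0.41 and 0.44) and Itgb3 (0.20 and 0.23). With the tubule covariate, Itga3 was at 0.026, Itga5 at 0.33, Itga2 at -0.42, Itga6 at -0.37 and Itgb3 at -0.71, beside -0.34 for Itga8 and -0.11 for Itgb5. Itga2 was at -0.031 with upper quartile scaling, -0.0073 in edgeR and -0.0041 in DESeq2. Without single libraries it ranged from -0.21 to 0.19 in limma, and in edgeR it was at -0.21 without WT-2, -0.064 without KO-1 and -0.024 without KO-2. Itga5 ranged from -0.27 to 0.011 in limma. Itga6 ranged from -0.25 to 0.18 in limma, and in edgeR it was at 0.10 without WT-1, 0.011 without WT-3 and 0.15 without KO-3. None of these chains was called in the main test.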
